A study of Mus musculus with 6 samples.

Results

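The 35 genes described here encode the enzymes of glycolysis, of gluconeogenesis and of the entry of fructose and galactose into these routes, with the enzymes that set the level of the phosphofructokinase activator. They were taken as a list of symbols, matched to Ensembl mouse gene identifiers, and all 35 were found among the 53953 rows of each library. Epithelial organoids grown from crypts of the upper (proximal) small intestine, taken from C57BL/6 wild-type mice, embedded in Matrigel and at passage 3 to 5, were given arachidonic acid, an omega-6 fatty acid, for 3 days and then passaged. Control organoids received 0.1% ethanol, the solvent, which the treated cultures also received. Total RNA was collected on day 3 after passaging, and 3 libraries were sequenced per group. No dose of arachidonic acid is named in the labels. Whether the libraries of 1 group stem from different cultures or animals is also unstated, and the p-values therefore reflect only the spread among these libraries, possibly technical.

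Glycolysis splits glucose into pyruvate in the cytosol, yielding ATP and NADH, and lactate dehydrogenase regenerates NAD from pyruvate when the NADH is not passed to mitochondria. Most steps have several isozymes with different regulation and tissue distribution. In the small intestine crypt progenitors are known for a glycolytic metabolism. Villus enterocytes take up dietary glucose, fructose and galactose, break fructose down from a first step at ketohexokinase, and carry gluconeogenic enzymes.

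Levels are FPKM, fragments scaled to gene length and to library depth, and are comparable between genes per length. The values imply 35600000 to 50800000 fragments per library. The epithelial gene Vil1 was at 377 to 427 FPKM with vehicle and 432 to 479.6 FPKM with arachidonic acid. Fibroblast, endothelial and smooth muscle markers reached at most 0.0902, 0.188 and 0.133 FPKM in any library. The 4 tuft cell markers reached at most 1.34 FPKM, and of 5 immune markers only Cd68, a lysosomal protein gene, passed 1 FPKM. Cd68 rose from 1.90 ± 0.323 to 14.7 ± 10.4 FPKM (log2 fold change 2.13, limma adjusted p = 0.028), but no longer passed when low genes were kept, with limma-voom on recovered fragments or without any library other than arachidonic acid replicate 1 (limma adjusted p = 0.074 to 0.11). Ptprc, the pan-leukocyte marker, had means of 0.00902 and 0.0302 FPKM, and the part of immune cells in the results was not tested. The goblet cell mucin gene Muc2 averaged 1.34 FPKM with vehicle and 0.338 FPKM with arachidonic acid, and the 4 goblet markers that were tested all fell. So did 4 of 5 Paneth cell markers and 7 of 7 enteroendocrine markers, of which Neurod1 passed the filter only through vehicle. Of 5 stem cell markers 2 fell and 1 rose, while 19.4% of all tested genes fell and 20.8% rose. The 6 proliferation markers summed to 981 to 1098 FPKM with vehicle and 807 to 1107 FPKM with arachidonic acid.

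Of the 35 genes 32 averaged 1 FPKM or more across the libraries and were tested. Differences are log2 fold changes of FPKM + 1, arachidonic acid minus vehicle, from limma fitted to all 12913 genes that passed this filter, with p-values adjusted by Benjamini-Hochberg over all of them and a threshold of 0.05. With arachidonic acid 18 of the 32 rose and 6 fell, and 8 did not pass. Over all tested genes 20.8% were called higher and 19.4% lower. The members' median log2 fold change was 0.61, against -0.029 over all tested genes. In 24 of the 32, the same 24 that were called, the vehicle and arachidonic acid values did not overlap, which held for 55.0% of all tested genes. Of the 24 calls 17 held in the same direction under each of 11 other settings, and the 7 that did not are named below. The summed FPKM of the 35 genes took 1.08%, 1.35% and 1.19% of all FPKM with vehicle and 1.90%, 2.51% and 2.34% with arachidonic acid.

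**Figure D1:**
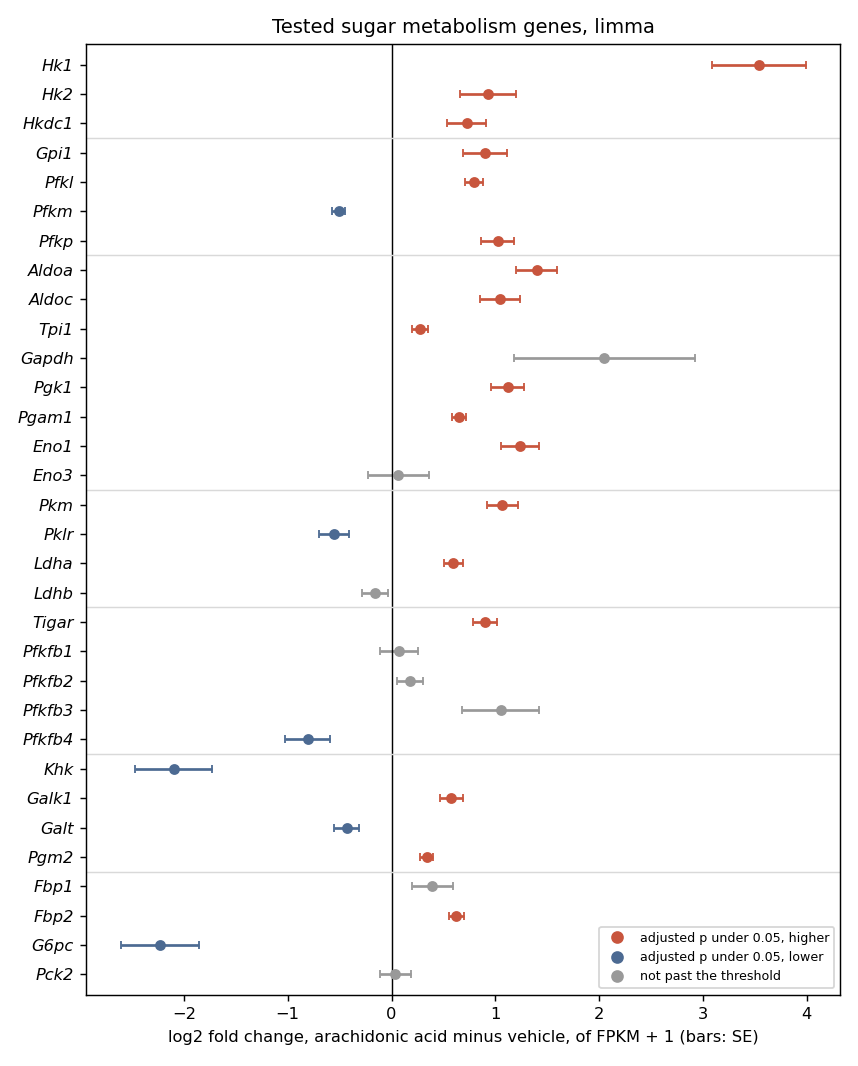
Log2 fold change of FPKM + 1 (arachidonic acid minus vehicle, x axis) of the 32 tested genes, with SE as bars, grouped by role from hexokinases to gluconeogenic enzymes; red and blue mark genes past the adjusted p threshold of 0.05. Hk1, at 3.54, lies farthest to the right, and G6pc and Khk, at -2.23 and -2.10, farthest to the left.

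Promoter sequences are shown for the gene with the largest rise, for one enzyme of the glycolytic trunk and for the fructose enzyme that fell, since hypoxia-inducible factors and the carbohydrate response factor ChREBP are known to act on sugar metabolism genes through short motifs. Each line gives the 250 bases before a RefSeq transcript start on build GRCm38.p6, read 5′ to 3′ on the gene's strand, with ACGTG and GCGTG, searched on both strands, in capitals. These are the core of the hypoxia response element, and the palindrome CACGTG, an E-box, contains ACGTG on each strand. The labels name no build for the expression files, and per-gene values do not tell which start was used.
Hk1, start with no motif (chr10:62379909-62380158, minus strand): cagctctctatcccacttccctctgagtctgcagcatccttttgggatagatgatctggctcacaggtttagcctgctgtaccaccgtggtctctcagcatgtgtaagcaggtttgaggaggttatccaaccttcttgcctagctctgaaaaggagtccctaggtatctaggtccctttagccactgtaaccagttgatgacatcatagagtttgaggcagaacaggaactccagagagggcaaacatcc
Hk1, start with motifs (chr10:62340422-62340671, minus strand): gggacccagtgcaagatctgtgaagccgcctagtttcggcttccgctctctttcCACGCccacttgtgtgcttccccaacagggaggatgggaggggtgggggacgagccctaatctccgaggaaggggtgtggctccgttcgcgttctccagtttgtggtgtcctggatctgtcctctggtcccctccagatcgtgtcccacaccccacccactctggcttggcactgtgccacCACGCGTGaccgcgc
Pgk1 (chrX:106186850-106187099, plus strand): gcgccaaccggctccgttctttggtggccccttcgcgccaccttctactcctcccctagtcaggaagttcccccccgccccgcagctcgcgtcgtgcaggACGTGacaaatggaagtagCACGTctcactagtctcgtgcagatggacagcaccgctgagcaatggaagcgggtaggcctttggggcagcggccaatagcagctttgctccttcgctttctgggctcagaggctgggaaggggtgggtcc
Khk (chr5:30921309-30921558, plus strand): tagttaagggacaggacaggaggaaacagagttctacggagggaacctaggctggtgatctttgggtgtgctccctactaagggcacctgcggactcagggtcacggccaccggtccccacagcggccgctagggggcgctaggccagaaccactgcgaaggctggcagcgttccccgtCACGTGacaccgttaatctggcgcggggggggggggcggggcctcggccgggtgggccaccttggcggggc
The downstream Hk1 start and Pgk1 hold hypoxia response cores, and Khk holds the E-box. Trunk genes differed: Aldoa, not printed, had a core before some of its starts and none before another, and Tpi1 had none. In windows from 250 bases before to 50 after the start, ACGTG or GCGTG stood at 15 of the 18 genes that rose, at 4 of the 6 that fell and at 7 of the 8 that did not pass, and at 46.7% of 27025 genes with a window. ACGTG alone stood at 11 of 18, 3 of 6 and 3 of 8, against 21.8% of all genes, and the E-box at 3 of 18, 3 of 6 and 2 of 8, against 8.09%. Base composition was not matched between these sets, and a match is no evidence of binding. No motif specific to ChREBP was searched.

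Hexokinases phosphorylate glucose and so hold it in the cell. Hk1, the mitochondria-bound hexokinase found in most tissues, was at 8.38, 10.6 and 9.02 FPKM with vehicle and at 52.8, 186 and 171 FPKM with arachidonic acid. Even the lowest arachidonic acid library, replicate 1, lay well above all vehicle libraries. The mean rose 14.6-fold, from 9.35 ± 1.17 to 136 ± 72.8 FPKM (SD, n = 3 per group, as for all later values; log2 fold change 3.54, SE 0.45, limma adjusted p = 0.0025). Hk2, the inducible isozyme, was at 23.5, 26.5 and 21.4 FPKM with vehicle and at 28.5, 60.2 and 56.4 FPKM with arachidonic acid, with replicate 1 just above the vehicle range (log2 fold change 0.93, limma adjusted p = 0.034). Hkdc1, a hexokinase domain protein, was the most abundant of the family with vehicle, at 42.4, 60.9 and 51.7 FPKM, and reached 68.4, 107 and 84.2 FPKM with arachidonic acid (log2 fold change 0.73, limma adjusted p = 0.023). Hk2 no longer passed when low genes were kept, nor when any library other than arachidonic acid replicate 1 was left out (limma adjusted p = 0.072 to 0.11). Hkdc1 no longer passed when low genes were kept, nor without vehicle replicate 1 or 3 or arachidonic acid replicate 2 or 3 (limma adjusted p = 0.060 to 0.083). Hk3, a myeloid isozyme, had between 0 and 5 fragments in any library and was not tested.

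The rises were unequal, so the makeup of hexokinase mRNA shifted. Hk1 made up 11.3%, 10.9% and 10.99% of the summed hexokinase FPKM with vehicle and 35.3%, 52.6% and 54.8% with arachidonic acid. The Hkdc1 share went from 60.7% ± 3.19 to 34.4% ± 9.94, and the Hk2 share from 28.2% ± 2.95 to 18.1% ± 0.992, although the FPKM of each was higher. None of these shares overlapped between the groups. The exact permutation test of each gave a two-sided p of 0.1, the smallest that 3 libraries against 3 allow. Total hexokinase FPKM was 84.8 ± 12.1 with vehicle and 271 ± 107 with arachidonic acid.

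**Figure D2:**
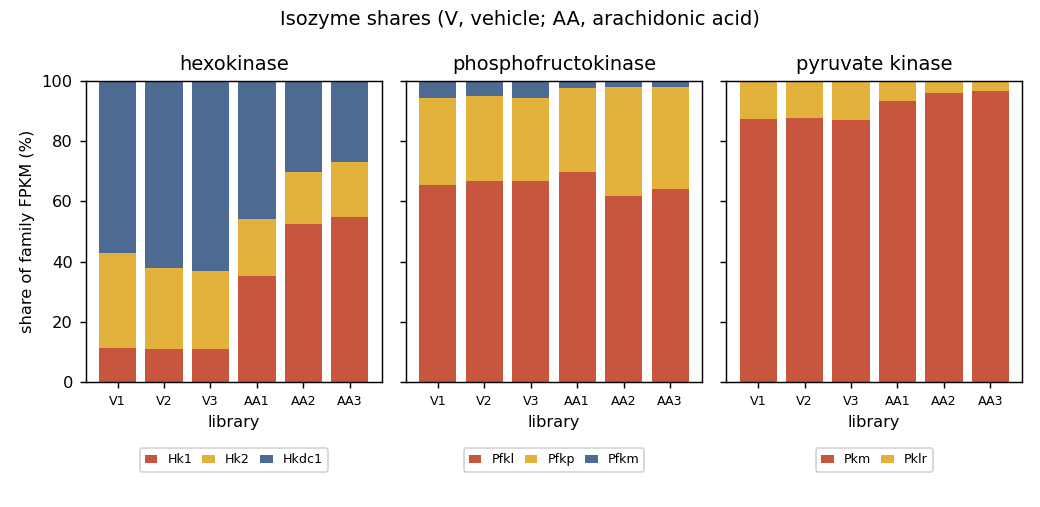
Share of each isozyme in the summed FPKM of its enzyme family (y axis, %), for each vehicle (V) and arachidonic acid (AA) library; Hk3 is left out of the drawing. The Hk1 and Pkm shares are higher in all 3 arachidonic acid libraries, the Pfkm and Pklr shares are lower, and the shares of Pfkl and Pfkp overlap between the groups.

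Glucose phosphate isomerase and phosphofructokinase, the committing step of glycolysis, follow. Gpi1, the isomerase, was at 619, 782 and 638 FPKM with vehicle and at 899, 1582 and 1417 FPKM with arachidonic acid (log2 fold change 0.90, limma adjusted p = 0.017), which no longer passed when low genes were kept (limma adjusted p = 0.053) or without vehicle replicate 1 or 3 or arachidonic acid replicate 2 or 3 (limma adjusted p = 0.051 to 0.070). Pfkl, the liver-type phosphofructokinase and the most abundant in these organoids, was at 258, 322 and 279 FPKM with vehicle. With arachidonic acid it was at 484, 509 and 496 FPKM, a tight group in which replicate 1 did not stand apart (log2 fold change 0.80, SE 0.09, limma adjusted p = 0.0017). Pfkp, the platelet type, rose 2.06-fold, from 121 ± 12.5 to 251 ± 52.1 FPKM (limma adjusted p = 0.0044). Pfkm, the muscle type, went the other way, from 22.8, 24.2 and 24.2 FPKM to 16.2, 16.6 and 16.3 FPKM (log2 fold change -0.51, SE 0.06, limma adjusted p = 0.0024). The muscle type was thus lower in every arachidonic acid library, and its share of phosphofructokinase FPKM was 5.52% ± 0.439 with vehicle and 2.15% ± 0.161 with arachidonic acid.

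The enzymes from aldolase to enolase form the trunk of the pathway, and 6 of the 8 tested rose, against 20.8% of all tested genes. Aldoa, aldolase A, which splits fructose bisphosphate, was at 678, 888 and 751 FPKM with vehicle and at 1499, 2427 and 2290.1 FPKM with arachidonic acid. All arachidonic acid libraries lay above all vehicle libraries, with a mean 2.68-fold higher (log2 fold change 1.40, SE 0.20, limma adjusted p = 0.0032). Aldoc, the brain-type aldolase, rose 2.10-fold from a lower level, 37.7 ± 7.25 to 79.2 ± 17.5 FPKM (limma adjusted p = 0.0069). A second gene model with the symbol Aldoa was at 3.40 to 6.78 FPKM and did not pass (limma adjusted p = 0.89).

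Pgk1, phosphoglycerate kinase, which makes the first ATP of the pathway, was at 654, 799.6 and 693 FPKM with vehicle and at 1224, 1801 and 1695 FPKM with arachidonic acid (log2 fold change 1.12, SE 0.16, limma adjusted p = 0.0032). Eno1, the ubiquitous enolase, was at 745, 1002 and 868 FPKM with vehicle and at 1577, 2412 and 2250.2 FPKM with arachidonic acid (log2 fold change 1.24, SE 0.18, limma adjusted p = 0.0037). In each of these the groups were far apart and arachidonic acid replicate 1 was the lowest of its group. Pgam1, phosphoglycerate mutase, moved less but more evenly, from 186, 200.1 and 179.8 FPKM to 284, 293 and 313 FPKM (log2 fold change 0.65, SE 0.07, limma adjusted p = 0.0014). Tpi1, triose phosphate isomerase, had the smallest rise of the trunk, 1.21-fold, from 1338 ± 86.6 to 1617 ± 42.8 FPKM (limma adjusted p = 0.026). Tpi1 no longer passed when low genes were kept (limma adjusted p = 0.14), with replicate blocks (limma adjusted p = 0.063) or without vehicle replicate 1 or 3 or arachidonic acid replicate 2 or 3 (limma adjusted p = 0.061 to 0.092). The muscle enolase Eno3 did not pass, at 6.67 ± 1.57 and 7.31 ± 3.06 FPKM, and the neuronal enolase Eno2, with at most 21 fragments in a library, was not tested.

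Gapdh, glyceraldehyde phosphate dehydrogenase, is widely used as a reference gene, and its values here did not follow its neighbours in the pathway. It was at 24.5, 36.6 and 190.3 FPKM with vehicle and at 362, 398 and 88.8 FPKM with arachidonic acid. Vehicle replicate 3 lay above arachidonic acid replicate 3, so the groups overlapped, and the gene did not pass (log2 fold change 2.05, SE 0.87, limma adjusted p = 0.10). Without vehicle replicate 3 it passed (log2 fold change 2.93, limma adjusted p = 0.034). Its vehicle mean of 83.8 ± 92.4 FPKM was far below that of Tpi1 and Pgk1, the steps before and after it. In the GENCODE M21 transcripts 79 other annotated genes held a stretch of at least 150 bases at 95% identity or more to the Gapdh transcript, the most of any of the 35 genes. These copies summed to 60.5, 58.3 and 59.0 FPKM with vehicle and 91.9, 116 and 106 FPKM with arachidonic acid, and the labels do not say how fragments matching several genes were counted. The Gapdh values are therefore uncertain, and the part of the copies in their spread was not tested.

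**Figure D3:**
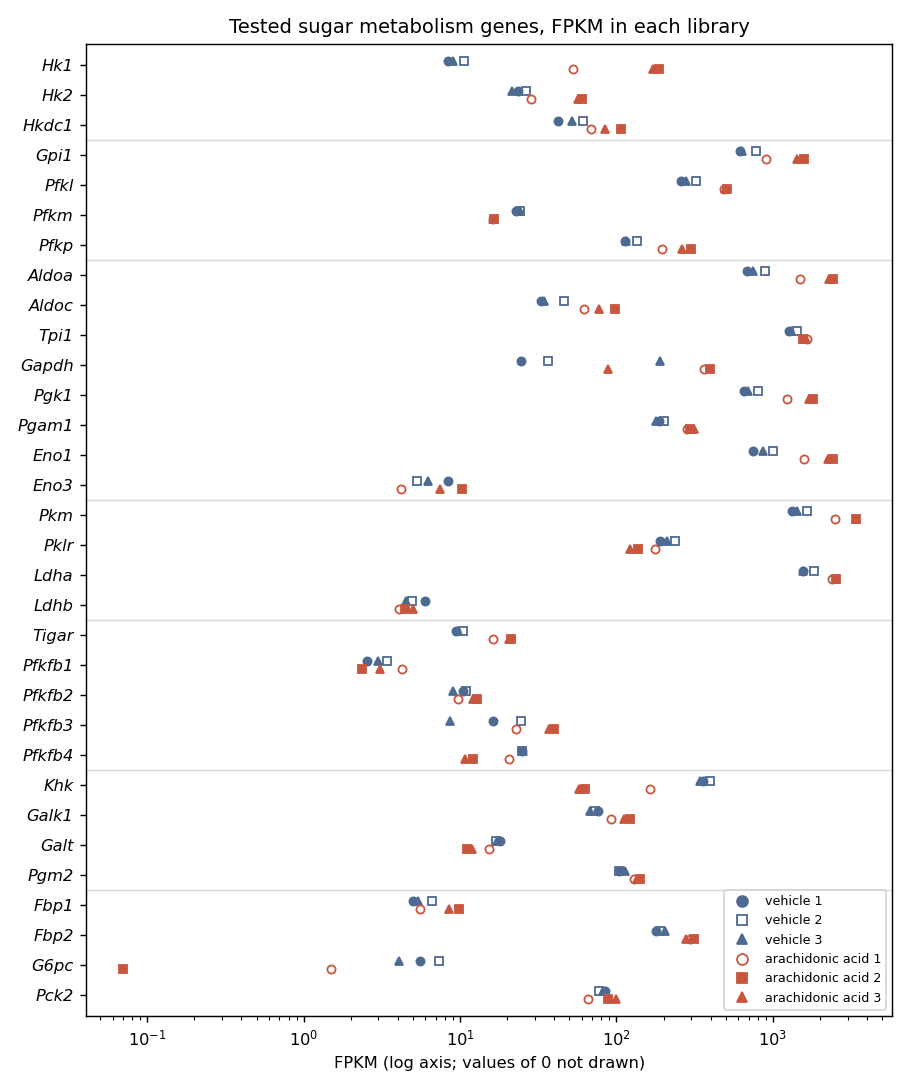
FPKM (x axis, log scale) of each of the 32 tested genes in each library, grouped by role; open symbols mark vehicle replicate 2 and arachidonic acid replicate 1. The arachidonic acid points lie to the right of the vehicle points for most hexokinase, phosphofructokinase and trunk genes, to the left for Pfkm, Pklr, Pfkfb4, Khk, Galt and G6pc, and are interleaved for Gapdh; the value of 0 for G6pc in arachidonic acid replicate 3 is not drawn.

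Pyruvate kinase closes the pathway. Pkm, whose splice forms are not separated in per-gene values, had the highest level of all 35 genes with arachidonic acid, at 2508, 3389 and 3384 FPKM against 1327, 1658 and 1416 FPKM with vehicle (log2 fold change 1.07, SE 0.15, limma adjusted p = 0.0030). Pklr, the liver and red cell isozyme that is regulated by fructose bisphosphate and by feeding, was at 189, 235 and 211 FPKM with vehicle and at 175, 137 and 122 FPKM with arachidonic acid (log2 fold change -0.56, SE 0.15, limma adjusted p = 0.024). The isozymes thus moved apart, and Pklr made up 12.6% ± 0.287 of pyruvate kinase FPKM with vehicle and 4.63% ± 1.66 with arachidonic acid. Pklr no longer passed when low genes were kept (limma adjusted p = 0.062), with replicate blocks (limma adjusted p = 0.0502) or without vehicle replicate 2 or 3 or arachidonic acid replicate 2 or 3 (limma adjusted p = 0.072 to 0.084). Ldha, the lactate dehydrogenase subunit of glycolytic tissues, rose from 1558, 1834 and 1560.0 FPKM to 2394, 2534 and 2539 FPKM (log2 fold change 0.60, SE 0.09, limma adjusted p = 0.0038). Ldhb, the heart-type subunit, was at 4.53 to 5.96 FPKM with vehicle and 4.04 to 4.98 FPKM with arachidonic acid and did not pass. Ldha held 99.7% ± 0.0608 and 99.8% ± 0.0142 of lactate dehydrogenase FPKM.

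The PFKFB enzymes make and break the fructose bisphosphate isomer that activates phosphofructokinase, and TIGAR, a p53 target, breaks it down. Tigar was at 9.36, 10.5 and 9.76 FPKM with vehicle and at 16.2, 21.3 and 20.7 FPKM with arachidonic acid, with no overlap (log2 fold change 0.90, SE 0.12, limma adjusted p = 0.0025). Pfkfb4 fell from 25.0, 24.9 and 25.4 FPKM to 20.4, 12.2 and 10.7 FPKM (log2 fold change -0.81, SE 0.21, limma adjusted p = 0.024), which no longer passed when low genes were kept or any library other than arachidonic acid replicate 1 was left out (limma adjusted p = 0.064 to 0.079). Pfkfb3, the isoform with the highest kinase activity, varied widely within vehicle, at 16.2, 24.4 and 8.58 FPKM, and was at 22.8, 40.04 and 37.1 FPKM with arachidonic acid. Arachidonic acid replicate 1 lay below vehicle replicate 2, and Pfkfb3 did not pass (log2 fold change 1.05, SE 0.37, limma adjusted p = 0.061). It passed without vehicle replicate 2 (limma adjusted p = 0.037) and without arachidonic acid replicate 1 (limma adjusted p = 0.011). Its share of PFKFB FPKM was 29.0% ± 9.86 with vehicle and 52.8% ± 11.1 with arachidonic acid, and that of Pfkfb4 was 46.9% ± 8.05 and 23.6% ± 10.5 (exact permutation p = 0.1 for each, the smallest possible). Pfkfb1 and Pfkfb2 did not pass, at log2 fold changes of 0.07 and 0.18, and Pfkfb2 passed without arachidonic acid replicate 1 (log2 fold change 0.28, limma adjusted p = 0.034).

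Fructose enters through ketohexokinase, encoded by Khk, in a step that bypasses phosphofructokinase. Khk was at 359, 399 and 340.4 FPKM with vehicle and at 164, 63.0 and 58.0 FPKM with arachidonic acid. Every arachidonic acid library lay below every vehicle library, with replicate 1 the nearest, and the vehicle mean was 3.86-fold the arachidonic acid mean (log2 fold change -2.10, SE 0.37, limma adjusted p = 0.0065). Tkfc, triokinase, a later enzyme of the route named after its values were seen, was at 223, 268 and 239 FPKM with vehicle and at 196, 75.8 and 67.5 FPKM with arachidonic acid. It fell (log2 fold change -1.27, SE 0.38, limma adjusted p = 0.037), but no longer passed when low genes were kept (limma adjusted p = 0.093) or any library other than arachidonic acid replicate 1 was left out (limma adjusted p = 0.093 to 0.11). In bulk organoids fewer cells of a type and less RNA per cell cannot be told apart.

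Enterocyte markers moved beside these genes, in both directions. Of 13 such markers 6 fell and 2 rose, against 19.4% and 20.8% of all tested genes. Lct, lactase, went from 7.67, 11.2 and 8.53 FPKM to 0.470, 0.0579 and 0 FPKM, passing the filter only through vehicle, and Sis, sucrase-isomaltase, named after its values were seen, from 218, 301 and 262 FPKM to 119.9, 9.26 and 8.51 FPKM. Alpi and Fabp1 rose, Fabp1 from 313, 412 and 339 FPKM to 4094, 1984 and 1617 FPKM. The summed marker FPKM was 1931 to 2363 with vehicle and 2535 to 5762 with arachidonic acid. Fabp1 was the largest part of that sum in each arachidonic acid library, so the sum does not give the direction of the other markers. As for Khk, arachidonic acid replicate 1 had the Sis level nearest to vehicle. The part of the enterocyte content in the falls of fructose genes was not tested.

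Galactose enters through galactokinase and galactose phosphate uridylyltransferase, whose genes moved in opposite directions. Galk1, the kinase, rose from 75.7, 73.1 and 67.8 FPKM to 92.1, 122 and 112 FPKM (log2 fold change 0.57, SE 0.11, limma adjusted p = 0.0084). Galt, the transferase, was at 18.1, 17.1 and 17.2 FPKM with vehicle and at 15.3, 11.1 and 12.0 FPKM with arachidonic acid (log2 fold change -0.43, SE 0.12, limma adjusted p = 0.029), which no longer passed when low genes were kept or any library other than arachidonic acid replicate 1 was left out (limma adjusted p = 0.063 to 0.098). The Galt transcript shares sequence with another annotated gene, so its low values are uncertain. Pgm2, of the phosphoglucomutase family, rose 1.27-fold, from 107 ± 5.08 to 135 ± 5.76 FPKM (limma adjusted p = 0.0082). Pgm1, the main phosphoglucomutase between glycogen and glycolysis and not one of the 35, rose 3.13-fold, from 34.1 ± 4.34 to 107 ± 23.8 FPKM (limma adjusted p = 0.0017).

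Gluconeogenic genes had no common direction. G6pc, glucose 6-phosphatase, the last step before glucose leaves the cell, was at 5.54, 7.36 and 4.05 FPKM with vehicle. With arachidonic acid it was at 1.48 and 0.0698 FPKM in replicates 1 and 2 and listed at 0 in replicate 3, or 182, 6 and 0 fragments against 377 to 650 with vehicle. It fell (log2 fold change -2.23, SE 0.38, limma adjusted p = 0.0056), with a size that depends on the added constant, at -4.22 with 0.1 in place of 1 and -6.03 with limma-voom on recovered fragments. G6pc passed the filter only through its vehicle values. Its partner transporter Slc37a4, named after its values were seen, fell from 58.7 ± 1.08 to 41.9 ± 1.92 FPKM (log2 fold change -0.48, limma adjusted p = 0.0025).

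Fbp2, the muscle-type fructose bisphosphatase, rose from 179, 191 and 204 FPKM to 295, 311 and 280.1 FPKM (log2 fold change 0.62, SE 0.07, limma adjusted p = 0.0020). It was the main isozyme of these organoids, at 97.1% ± 0.424 and 97.4% ± 0.660 of fructose bisphosphatase FPKM, and Fbp1, the liver type, at 5.69 ± 0.869 and 7.92 ± 2.15 FPKM, did not pass (limma adjusted p = 0.15; 0.0041 without arachidonic acid replicate 1). Pck2, the mitochondrial phosphoenolpyruvate carboxykinase, was at 84.5, 77.2 and 82.0 FPKM with vehicle and at 65.5, 88.4 and 99.996 FPKM with arachidonic acid. It was lower than vehicle in replicate 1 and higher in the others, and did not pass (log2 fold change 0.04, limma adjusted p = 0.86), but passed without replicate 1 (log2 fold change 0.21, limma adjusted p = 0.036). The Pck2 transcript shares sequence with 14 other annotated genes, so its values are uncertain. These genes summed to 90.6, 94.7 and 88.3 FPKM with vehicle and 136, 217 and 194 FPKM with arachidonic acid. Pck1, the cytosolic form and a marker gene of hepatic gluconeogenesis, was at 0.0674 to 0.451 FPKM over all libraries and was not tested. Pcx, pyruvate carboxylase, outside the 35, rose from 2.82 ± 0.555 to 23.6 ± 11.1 FPKM (log2 fold change 2.57, limma adjusted p = 0.0032).

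Transporters that feed sugars to these enzymes went both ways. Of 17 hexose transporter genes 8 were tested, 4 rose and 1 fell, with a median log2 fold change of 0.60. Over all tested genes 20.8% rose and 19.4% fell. Slc2a1, the basal glucose transporter GLUT1, was at 53.1, 67.9 and 49.1 FPKM with vehicle and at 124, 216 and 205 FPKM with arachidonic acid (log2 fold change 1.64, SE 0.23, limma adjusted p = 0.0031). Slc5a1, the brush-border glucose and galactose transporter SGLT1, fell from 59.5, 80.7 and 71.3 FPKM to 40.8, 16.2 and 13.5 FPKM (log2 fold change -1.70, SE 0.38, limma adjusted p = 0.014), a call lost without vehicle replicate 2 or 3 (limma adjusted p = 0.054 and 0.0505). Slc2a5, the fructose transporter GLUT5, did not pass. It was at 17.8, 25.5 and 21.1 FPKM with vehicle and at 17.3, 2.17 and 1.70 FPKM with arachidonic acid (limma adjusted p = 0.054; 0.039 with limma-voom on recovered fragments). Slc2a2, the basolateral transporter GLUT2, did not pass either, at 11.4, 16.5 and 14.2 and at 12.6, 3.05 and 2.08 FPKM (limma adjusted p = 0.067). In both, arachidonic acid replicate 1 was near vehicle, and without it both passed (log2 fold change -2.92 and -2.08, limma adjusted p = 2.2e-06 and 2.6e-05). Slc5a9 and Slc5a4b, of the sodium-glucose family, rose by 0.84 and 1.27 log2 units, Slc5a4b from 0.223 ± 0.0682 FPKM, passing the filter only through arachidonic acid. Of the count, 2 rose without arachidonic acid replicate 3, and the number that fell was 0 without vehicle replicate 2 or 3, 3 without arachidonic acid replicate 1 and 2 with limma-voom on recovered fragments.

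**Figure D4:**
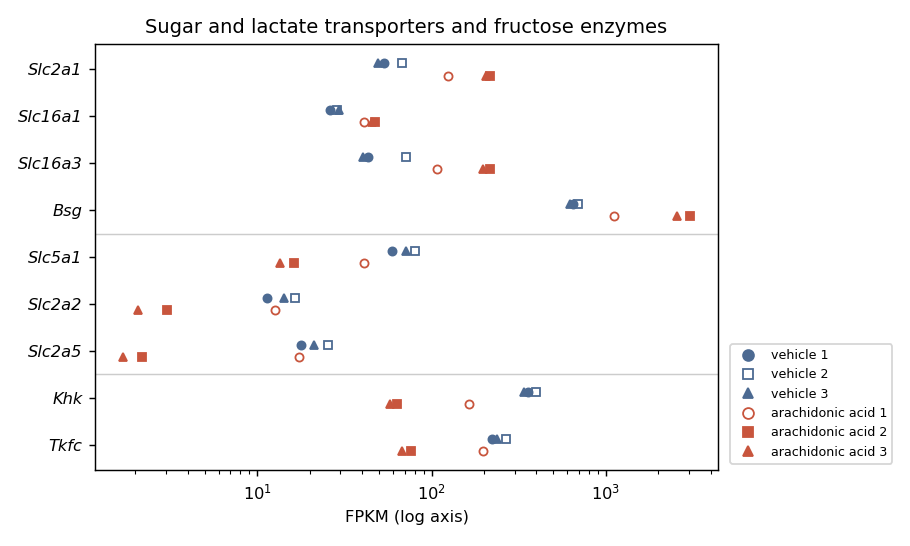
FPKM (x axis, log scale) in each library of glucose and lactate transport genes (top), brush-border and basolateral sugar transporters (middle) and fructose enzymes (bottom); open symbols mark vehicle replicate 2 and arachidonic acid replicate 1. In the top group all arachidonic acid points lie to the right of the vehicle points, and in the lower groups arachidonic acid replicates 2 and 3 lie to the left of them, with replicate 1 near or among the vehicle points for Slc2a2, Slc2a5 and Tkfc.

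At the other end of the pathway, 7 of 16 tested genes of pyruvate and lactate exchange rose and 2 fell. Their median log2 fold change was 0.14, and 20.8% of all tested genes rose and 19.4% fell. Slc16a1, the monocarboxylate transporter MCT1, rose from 28.2 ± 1.71 to 44.6 ± 3.33 FPKM (limma adjusted p = 0.0024). Slc16a3, the lactate exporter MCT4, and Bsg, basigin, the chaperone of both transporters, were named after their values were seen. Slc16a3 was at 43.4, 71.8 and 40.3 FPKM with vehicle and at 108, 217 and 196 FPKM with arachidonic acid (log2 fold change 1.71, limma adjusted p = 0.0073), and Bsg at 645, 691 and 627 and at 1119.8, 3024 and 2575 FPKM (log2 fold change 1.65, limma adjusted p = 0.011). All arachidonic acid libraries were above all vehicle libraries in both. Pdk1 and Pdk4, kinases that shut off pyruvate dehydrogenase, rose by 0.52 and 3.55 log2 units, Pdk4 from a vehicle mean of 0.783 FPKM, passing the filter only through arachidonic acid. The number that fell was 0 without vehicle replicate 1 or arachidonic acid replicate 3, 1 without vehicle replicate 2 or 3 or with replicate blocks, and 6 without arachidonic acid replicate 1.

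Other enzymes of sugar metabolism numbered 9 higher and 6 lower of 23 tested, against 20.8% and 19.4% of all tested genes. The median log2 fold change was 0.09, and with any library other than arachidonic acid replicate 1 left out 2 or 3 were lower. The smallest p of this list, beside Pgm1, were those of Gk, glycerol kinase, from 4.10 ± 0.248 to 12.9 ± 2.04 FPKM, Gpd2, the mitochondrial glycerol phosphate dehydrogenase that takes up cytosolic reducing power, from 45.6 ± 4.34 to 109.8 ± 18.1 FPKM, and Akr1b3, aldose reductase, from 15.8 ± 0.536 to 33.0 ± 5.03 FPKM. Of 12 tested glycogen genes 6 rose and 0 fell by limma (1 at an unadjusted p under 0.05, 0 with limma-voom, 1 when low genes were kept and 1 without arachidonic acid replicate 1), with a median of 0.45. Gys1, glycogen synthase, rose from 25.4 ± 2.94 to 40.1 ± 4.47 FPKM, Ugp2, which makes UDP-glucose, from 76.6 ± 4.10 to 138 ± 18.1 FPKM, and Gyg, glycogenin, from 7.98 ± 0.221 to 12.97 ± 1.99 FPKM.

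Of 16 known regulators of these genes 4 rose and 5 fell, counts near those that the 20.8% and 19.4% of all tested genes would give, with a median log2 fold change of -0.09. Mlxipl, which encodes the sugar-sensing factor ChREBP and was named after its values were seen, was at 188, 213 and 177 FPKM with vehicle and at 119.6, 68.1 and 53.7 FPKM with arachidonic acid (log2 fold change -1.33, SE 0.27, limma adjusted p = 0.010). Its vehicle and arachidonic acid libraries did not overlap, and replicate 1 was again the nearest to vehicle. Txnip and Arrdc4, arrestin-family genes known to respond to ChREBP and also named after their values were seen, rose, from 268 ± 33.9 to 349.97 ± 22.0 FPKM and from 24.7 ± 2.90 to 34.9 ± 0.941 FPKM (log2 fold change 0.39 and 0.49, limma adjusted p = 0.024 and 0.0087). Txnip no longer passed when low genes were kept or without vehicle replicate 1 or 3 or arachidonic acid replicate 2 (limma adjusted p = 0.059 to 0.086). Srebf1, a factor of lipid and sugar genes, Hnf4a, an enterocyte and liver factor, and Nr3c1, the glucocorticoid receptor, fell by 0.87, 0.58 and 0.98 log2 units, and Creb3l3, a fasting-induced factor, rose by 1.44. Hif1a mRNA did not pass, at 34.98 ± 2.91 and 30.5 ± 3.21 FPKM (limma adjusted p = 0.17), while Epas1, which encodes the other main HIF alpha subunit, rose from 4.38 ± 0.228 to 6.82 ± 0.660 FPKM (log2 fold change 0.54, limma adjusted p = 0.0078). Both were named after their values were seen.

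Of 16 hypoxia response genes outside the sugar pathways 11 rose and 0 fell by limma. The number that fell was also 0 at an unadjusted p under 0.05 and with limma-voom. The median log2 fold change was 1.09, and over all tested genes 20.8% rose and 19.4% fell. Egln3, a prolyl hydroxylase, went from 14.8, 22.95 and 12.1 FPKM to 88.6, 320.0 and 281 FPKM, and Ero1l, an oxidoreductase of the endoplasmic reticulum, from 124, 172 and 117 FPKM to 589.6, 1769 and 1539 FPKM. In both, arachidonic acid replicate 1 lay between the vehicle libraries and the other two, and vehicle replicate 2 was the highest vehicle library. Bnip3, of mitophagy, rose from 64.9 ± 11.8 to 147 ± 20.97 FPKM and Higd1a, of the respiratory chain, from 72.5 ± 6.73 to 114 ± 7.99 FPKM (limma adjusted p = 0.0026 and 0.0029). Oxygen and HIF protein were not measured, and their part in the glycolytic rises was not tested.

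The same 2 libraries stood out among the glycolytic genes. Vehicle replicate 2 was the highest vehicle library for 15 of the 18 genes that rose. Arachidonic acid replicate 1 was the lowest of its group for 16 of those 18 and the highest for 5 of the 6 that fell. Its position, measured from 0 at the vehicle mean FPKM to 1 at the mean of arachidonic acid replicates 2 and 3, had a median of 0.49 over the genes that rose. It ranged from 0.14 for Hk2, 0.26 for Hk1 and 0.27 for Gpi1 to 0.91 for Pfkl and 1.16 for Tpi1. Over the genes that fell it ran from 0.34 for Pfkfb4 to 1.04 for Pfkm. The isozymes and steps of the pathway thus did not keep a common order in this library, and since the calls used its values, these positions are selected in part by them. Without this library 22 genes were higher and 6 lower.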

How the data were processed

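The authors deposited one value per gene for each of 6 libraries, taken here as FPKM from the values, as no label names the unit. The tools HISAT2 2.0.5, StringTie 1.3.3b, featureCounts 1.5.0-p3 appear in the submitters' processing notes without roles. Build, annotation and strand setting were not given in the sources used here. Overlapping and antisense genes are therefore uncertain. When multiplied by mean GENCODE M21 transcript length, 96.3% to 96.7% of values under 100 fragments lay within 0.1 of a whole multiple of a library-wide unit, which gave the depth and the recovered fragments.

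limma 3.58.1 (R 4.3.3) with a variance trend was fitted to log2(FPKM + 1) of all genes averaging 1 FPKM or more. Exact permutation tests used scipy 1.17.1. The fit was tested on simulated data. Near-identical genes were found with blastn. Alternatives were a pseudocount of 0.1, keeping low genes, median-of-ratios scaling, replicate blocks and leaving out each library. limma-voom on recovered fragments, with median-of-ratios library sizes, was added after seeing the data. The 35 genes and all lists were chosen with earlier results of these data known. Named were all 35 genes, the 4 smallest p of each other list, and Slc2a1, Slc2a2, Slc2a5 and Slc5a1; any other gene was named after its values were seen. Some genes that this rule names are not reported here.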

Additional observations from a re-analysis of the deposited data

How the results depend on the processing

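The 18 genes that rose and 6 that fell numbered the same with a pseudocount of 0.1, with median-of-ratios scaling and with limma-voom on recovered fragments. When low genes were kept, so that all 35 were tested, 14 rose and 3 fell. Leaving out 1 library gave 14 to 22 higher and 3 to 6 lower. With the replicate block 17 rose and 5 fell, the calls of Tpi1 and Pklr being lost. The replicate numbers were not taken as pairs: across genes, the deviations of libraries from their group mean had correlations of -0.0811, 0.210 and -0.0623 for equal numbers and -0.177 to 0.190 for unequal ones. Directions reversed only for genes that did not pass: leaving out 1 library moved Eno3 between -0.19 (without arachidonic acid replicate 2) and 0.37, with -0.06 without vehicle replicate 2, Pck2 between -0.0926 (without arachidonic acid replicate 3) and 0.21, with -0.0048 without replicate 2, and Pfkfb1 between -0.0964 (without arachidonic acid replicate 1) and 0.22, with -0.0111 without vehicle replicate 1. The median log2 fold change of all tested genes was -0.029, and -0.011 with median-of-ratios scaling. Depth limits Hk3, Eno2, Pck1 and, with arachidonic acid, G6pc.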

Other observations

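Near-identical copies were not particular to Gapdh. Of the 35 genes 15 shared at least 150 bases at 95% identity or more with another annotated gene, some of them overlapping neighbours. The 3 genes that share sequence with Eno1, Eno1b the most abundant, summed to 117, 151 and 122 FPKM with vehicle and to 231, 79.8 and 76.9 FPKM with arachidonic acid, where Eno1 itself rose in all 3 libraries. Hcn3, which shares sequence with Pklr, went from 8.71, 9.48 and 8.66 FPKM to 3.81, 1.67 and 2.08 FPKM, in the direction of Pklr. Pitrm1, which shares sequence with Pfkp, was at 75.8 to 80.8 FPKM with vehicle and 72.0 to 82.8 FPKM with arachidonic acid, while Pfkp rose. The cause of the unequal movement of these pairs was not tested.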
